A study of Mus musculus with 6 samples.

Results

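The genes described here encode 44 nucleolar factors that assemble ribosomes, of 49315 genes in the count table of the series. They were chosen as a fixed list of symbols, matched to the Ensembl identifiers of the files through the GENCODE mouse annotation, and all 44 were found. RNA came from 3 sorted bone marrow populations: long-term hematopoietic stem cells (LT-HSCs), short-term stem cells (ST-HSCs) and multipotent progenitors (MPPs). Each was sorted from ING4-/- mice, an ING4-deficient line kept as a colony, and from WT C57BL/6 mice, which were 8 to 12 weeks old per the methods. Marrow of several mice of a genotype was pooled and lineage depleted before the sort, and the mice received no treatment. Each population gave 1 library per genotype, so the 3 libraries of a genotype are 3 populations and p-values measure the spread between those.

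Ribosomes are built in the nucleolus, where RNA polymerase I transcribes a long precursor of the ribosomal RNAs. Small nucleolar ribonucleoproteins modify this precursor: box C/D particles methylate it and box H/ACA particles turn uridines into pseudouridines. The small subunit processome then folds and cuts the part that becomes the 40S subunit, other factors build the 60S subunit, and late factors mature both on the way to the cytoplasm. Hematopoietic stem cells make little protein, and their progenitors make more.

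The WT libraries held 7839326 to 9363442 counts and the ING4-/- libraries 35596876 to 39192588. The WT libraries also held counts in genes with no known use in marrow. Over 1431 olfactory and vomeronasal receptor genes, the density was 18.1 to 22.7 counts per kb of exon in WT and at most 0.0851 in ING4-/-. This density, multiplied by exonic length, is called the background below, and most comparisons are given on the counts as deposited and again after its subtraction. Ing4 itself, the gene in which the mutant line is deficient, was counted 247, 162 and 247 times in the LT-HSC, ST-HSC and MPP library of WT mice and 0, 24 and 76 times in those of ING4-/- mice, a log2 fold change of -4.49 ± 1.56 (SE, edgeR's quasi-likelihood test, adjusted p = 0.0373), and of -4.24 ± 1.72 after subtraction (adjusted p = 0.0863). The background would supply 48.2%, 74.65% and 38.96% of its counts in these WT libraries. Gm44597, on the same strand, covers 34.9% of its exon bases. Between 11 and 13 of 13 stem and progenitor markers had at least 10 counts in every library. Summed levels of 8 erythroid markers were 27.6 to 40.4 CPM (counts scaled to the size of the library) in WT and 76.4 to 165 in ING4-/-, with Alas2 at 0 in each ING4-/- library. Those of 9 granulocyte markers were 122 to 358 in WT and 322 to 574 in ING4-/-, with Ly6g at 0 in each ING4-/- library. Those of 8 T and NK cell markers were 102 to 114 in WT and 45.3 to 62.7 in ING4-/-, with Cd3e, Cd3g, Cd8a and Ncr1 at 0 there. After subtraction the WT sums were 8.33 to 26.4 for the erythroid, 131 to 409 for the granulocyte and 72.5 to 89.8 for the T and NK cell markers, and the ranges in ING4-/- were as before. The part of these cells in the results below was not tested.

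The question of the genotype comparison is which assembly factors differ in RNA when ING4 is lost. A gene was called when its adjusted p was under 0.05 and its log2 fold change, ING4-/- over WT, was beyond 1 in either direction. On the counts as deposited, 12 of 44 members were called higher: Nop10, Nhp2, Fbl, Npm1, Imp3, Utp15, Emg1, Nob1, Nip7, Mrto4, Nop16 and Noc2l. Of all 31001 genes tested, 7.98% were called higher, and of the 9673 genes that reached 10 counts in each library, as all 44 members did, 24.3% were. No member was called lower, against 56.7% of all genes tested and 6.53% of the 9673. An unadjusted p under 0.05 was found for 22 members, but no share of genes at that p is given to set beside them. The median log2 fold change of the members was 0.64, beside 0.52 for the 9673 genes and -6.85 for all genes tested. Scaling moves both medians together: with DESeq2's size factors the 9673 genes had a median of 0.17 and with upper-quartile normalization 1.12, and the members stood 0.12 to 0.13 above it in each. With DESeq2's size factors 8 members were called higher, beside 4.33% of genes, and 2 lower, beside 58.3%: Tcof1 at -1.12 (adjusted p = 0.00315) and Noc3l at -2.27 (adjusted p = 0.036). In bulk RNA of sorted cells, fewer cells of a kind and less RNA per cell cannot be told apart.

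After subtraction of the background, 4 members were called higher and 1 lower, of which Nop10 alone stayed called with population as a block. Those called higher were Nop10, Nhp2, Nip7 and Utp15, beside 5.6% of the 19744 genes tested and 9.08% of the genes with at least 10 counts. The member called lower was Tcof1, beside 38.7% of the genes tested and 5.7% of those with at least 10 counts. The median of the members was then -0.01, with 20 log2 fold changes above 0 and 24 below, beside a median of 0.25 for the genes that reached 10 counts. The share of a member's WT counts that the background would supply was 1.02% to 1.44% for Npm1 and reached 40.9% for Noc3l in MPPs, with medians over the members of 7.19% in MPPs, 13.3% in ST-HSCs and 12.3% in LT-HSCs. For Rrs1, with 25 counts in WT LT-HSCs, it came to 183%, so that the subtracted value there was 0.

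**Figure D1:**
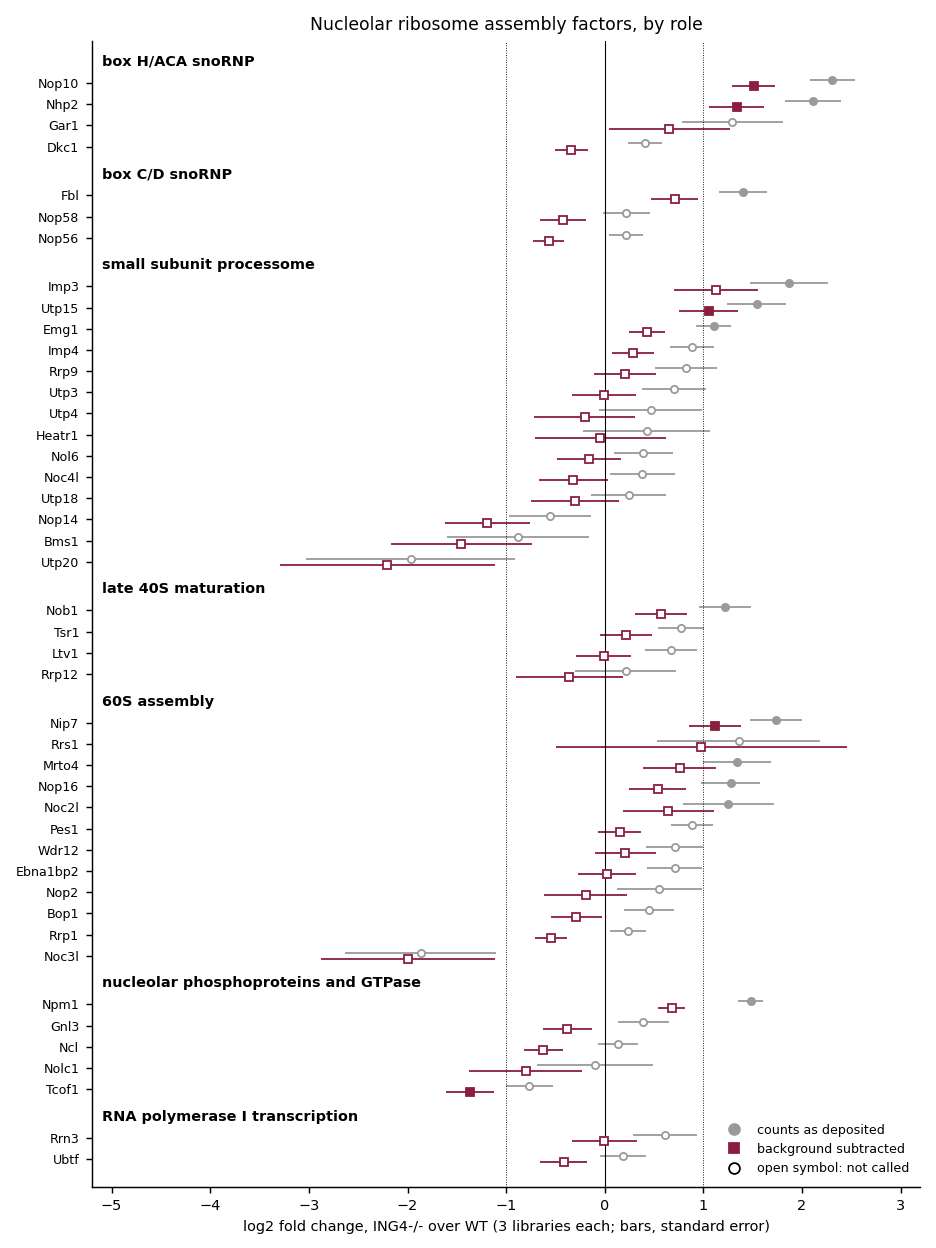
Log2 fold change (ING4-/- over WT, horizontal axis, 3 libraries each) of the 44 members by role; grey circles are counts as deposited, red squares the same after background subtraction, bars are standard errors, filled symbols are called members and dotted lines mark the fold threshold of 1. The 12 filled circles all lie right of 1, while after subtraction only Nop10, Nhp2, Nip7 and Utp15 remain filled on the right and Tcof1 on the left.

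When the trend of the libraries on exonic length was removed and a minimum of 10 counts was set for each library, 8 members were called higher, beside 9.09% of 9673 genes, and 0 lower, beside 4.26%. With that minimum alone 5 were called higher, beside 8.3%, and 2 lower, beside 9.68%. The 8 were Nop10, Nhp2, Fbl, Nop58, Nip7, Wdr12, Utp15 and Imp4. With background and trend both removed, 43 members could be tested, Rrs1 being lost to its 0. Of these, 2 were called higher, Nop10 with a log2 fold change of 1.02 ± 0.203 (SE, adjusted p = 0.0163) and Wdr12 with 1.24 ± 0.304 (adjusted p = 0.0367), beside 3.51% of 8086 genes. Tcof1 was called lower at -1.20 ± 0.284 (adjusted p = 0.0322), beside 2.88%. Nop10 was thus the member called higher on the counts and under all 3 corrections. Over 33 settings of the genotype fit it was called in 32, with a lowest log2 fold change of 0.94.

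What the members shared in their promoters was examined in RefSeq's windows (build GRCm38.p6), of which the 250 bases before the start were read for 37 members in 45 windows. Bases after the start of 37 windows were found in a GENCODE transcript. The ETS-type motif CCGGAAGT, read on both strands, was present for 9 of 37 members and for 3.23% of 27025 genes with a window. The holders were Nhp2, Nip7 and Emg1, called higher on the counts, and Gar1, Bms1, Heatr1, Ltv1, Utp3 and Utp4, which were not called. The E-box CACGTG, the site Myc is known for, was present for Imp4, Nop2, Rrn3 and Utp18, 4 of 37 members against 6.86% of genes. A window with the motif was thus no mark of a called gene, as the windows of 3 holders and of Nop10, which has neither motif, show. They are printed 5′ to 3′ on the strand of the gene with the ETS-type motif, in either orientation, in capitals. Nip7 lies at chr8:107056627-107056876 on the plus strand, Emg1 at chr6:124712179-124712428 on the minus strand, Gar1 at chr3:129831397-129831646 on the minus strand and Nop10 at chr2:112261676-112261925 on the plus strand.
Nip7: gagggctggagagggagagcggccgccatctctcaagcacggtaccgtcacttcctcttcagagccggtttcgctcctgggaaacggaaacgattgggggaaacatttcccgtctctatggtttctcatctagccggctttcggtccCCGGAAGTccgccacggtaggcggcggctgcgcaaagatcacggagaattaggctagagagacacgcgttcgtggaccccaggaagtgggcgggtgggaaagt
Emg1: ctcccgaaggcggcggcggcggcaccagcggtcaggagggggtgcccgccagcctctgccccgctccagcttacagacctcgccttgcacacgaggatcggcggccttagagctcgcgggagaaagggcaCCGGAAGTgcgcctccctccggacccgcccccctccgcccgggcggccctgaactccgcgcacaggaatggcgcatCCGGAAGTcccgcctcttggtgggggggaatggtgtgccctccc
Gar1: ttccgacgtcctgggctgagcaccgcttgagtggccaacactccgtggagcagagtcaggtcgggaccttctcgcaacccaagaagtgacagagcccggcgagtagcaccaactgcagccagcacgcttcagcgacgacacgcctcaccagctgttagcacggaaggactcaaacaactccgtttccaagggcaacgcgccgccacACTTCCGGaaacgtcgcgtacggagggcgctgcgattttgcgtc
Nop10: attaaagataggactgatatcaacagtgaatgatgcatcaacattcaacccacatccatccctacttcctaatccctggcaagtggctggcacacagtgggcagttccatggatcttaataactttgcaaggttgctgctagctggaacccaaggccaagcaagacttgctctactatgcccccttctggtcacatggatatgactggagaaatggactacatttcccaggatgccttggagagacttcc
The motif begins at position -103 from the start in Nip7, at -120 and -44 in Emg1 and at -44 in Gar1.

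The 4 core proteins of the box H/ACA particle did not move together. Nop10 (chr2:112261926-112263269, GRCm38), the smallest core protein, had 171, 201 and 163 background-subtracted CPM in the LT-HSC, ST-HSC and MPP library of WT and 427, 646 and 445 in ING4-/-. All 3 ING4-/- values lay above all 3 WT values, with means of 178 ± 19.9 and 506 ± 122 (SD, n = 3). Its log2 fold change was 2.31 ± 0.227 on the counts (SE, adjusted p = 0.000657) and 1.51 ± 0.215 after subtraction (adjusted p = 0.00216). Nhp2, another RNA-binding core protein, had 70.6, 140 and 119 CPM in WT and 270, 315 and 246 in ING4-/-, again without overlap. Its log2 fold change was 2.11 ± 0.284 on the counts (adjusted p = 0.000661) and 1.34 ± 0.283 after subtraction (adjusted p = 0.00569). Dkc1, the pseudouridine synthase itself, had 227, 287 and 260 CPM in WT and 195, 216 and 201 in ING4-/-, so its order was the reverse. It was not called, with 0.41 ± 0.175 on the counts (adjusted p = 0.0776) and -0.34 ± 0.169 after subtraction (adjusted p = 0.155), a change of sign. Gar1, which helps the enzyme release its product, had 10.7, 65.0 and 48.9 CPM in WT and 69.8, 62.8 and 63.5 in ING4-/-. Its groups overlapped after subtraction and not on the counts. It was not called, with 1.29 ± 0.512 on the counts (adjusted p = 0.0598) and 0.65 ± 0.611 after subtraction (adjusted p = 0.445). With population as a block, the log2 fold change of Nop10 after subtraction was 1.49 ± 0.151 (adjusted p = 0.0223), and it was then the only member called, beside 0.917% of genes called higher and 0.907% lower. Nhp2 had 1.38 ± 0.234 (adjusted p = 0.054) in that fit, and Nip7 1.13 ± 0.283 and Utp15 1.01 ± 0.314 (adjusted p = 0.0864 for both).

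The box C/D particle split as well, and the side of Nop58 depended on the correction for length. Fbl, the methyltransferase fibrillarin, had 114, 182 and 176 background-subtracted CPM in WT and 222, 292 and 259 in ING4-/-. The groups did not overlap, and the log2 fold change was 1.40 ± 0.243 on the counts (adjusted p = 0.00152) and 0.71 ± 0.239 after subtraction (adjusted p = 0.0452), which is under the fold threshold. Nop56, a scaffold of the particle, had 459.9, 539 and 514 CPM in WT and 305, 381 and 333 in ING4-/-, with every ING4-/- value below every WT value. Its log2 fold change was 0.21 ± 0.172 on the counts (adjusted p = 0.321) and -0.57 ± 0.155 after subtraction (adjusted p = 0.0186), so that its sign turned with the subtraction. Nop58, the partner scaffold, was at 262, 294 and 225 CPM in WT and 141, 208 and 235 in ING4-/-, with 0.22 ± 0.241 on the counts (adjusted p = 0.463) and -0.42 ± 0.237 after subtraction (adjusted p = 0.203). Exons of Nop58 span 10758 bases in the annotation, and with the length trend removed from the counts it was called higher at 1.10 ± 0.228 (adjusted p = 0.0134). Fbl was called higher in that fit too, at 1.10 ± 0.213 (adjusted p = 0.01), while Nop56 had -0.13 ± 0.160 (adjusted p = 0.633). Fbl has 2 near-identical copies in the genome, whose counts were 10.8% to 18.8% of those of Fbl in WT, 10.4% in ING4-/- LT-HSCs and at most 0.902% in the other ING4-/- libraries, so its counts could be split among them. Genes of snoRNAs, Snord57 among them, cover 8.0% of the exon bases of Nop56.

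Of 14 small subunit processome genes, 3 were called higher on the counts and 1 after subtraction, beside 24.3% and 9.08% of the genes that reached 10 counts. The latter was Utp15, a subunit of the UtpA complex that binds the start of the precursor, with 53.5, 49.1 and 54.7 background-subtracted CPM in WT and 73.4, 129 and 123 in ING4-/-. The 3 WT values lay close together and below all ING4-/- values, and the log2 fold change was 1.54 ± 0.297 on the counts (adjusted p = 0.00253) and 1.05 ± 0.301 after subtraction (adjusted p = 0.0232). Without the ING4-/- ST-HSC library the subtracted value was 0.92 (adjusted p = 0.0703), and without the ING4-/- MPP library it was 0.97 (adjusted p = 0.0687). Imp3, which helps U3 RNA pair with the precursor, had 54.1, 69.4 and 37.0 CPM in WT and 176, 66.9 and 108 in ING4-/-, so the ST-HSC libraries were alike and the others apart. It was called on the counts at 1.87 ± 0.391 (adjusted p = 0.00375) and was not called after subtraction, at 1.13 ± 0.427 (adjusted p = 0.0687). Imp3 has 1 near-identical copy, whose counts were 6.71% to 17.1% of those of Imp3 in WT and at most 1.11% in ING4-/-. Emg1, a methyltransferase of the 18S rRNA, was called on the counts at 1.10 ± 0.179 (adjusted p = 0.00114) and had 0.43 ± 0.179 after subtraction (adjusted p = 0.0941). Its subtracted levels of 139 to 155 CPM in WT lay below the 187 to 225 of ING4-/-. Leaving out the WT MPP library brought it to 0.96 on the counts, under the fold threshold.

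The lowest fold changes of the processome were those of Utp20, Bms1 and Nop14. Utp20, a very large scaffold protein, had 527, 493 and 648 counts in WT and 19, 700 and 719 in ING4-/-, although the ING4-/- libraries are deeper. In background-subtracted CPM this was 53.1, 51.2 and 67.8 against 0.514, 18.6 and 18.3. The groups did not overlap, but the ING4-/- LT-HSC library stood far below the other ING4-/- libraries and the log2 fold change of -1.97 ± 1.06 on the counts (adjusted p = 0.144) and -2.20 ± 1.09 after subtraction (adjusted p = 0.151) was not called. Bms1, a GTPase of the processome, had 75.6, 79.8 and 100.3 CPM in WT and 5.51, 41.3 and 46.4 in ING4-/-, at -0.88 on the counts and -1.46 ± 0.713 after subtraction (adjusted p = 0.148). Nop14 had 77.5, 53.6 and 60.7 CPM in WT and 16.0, 35.0 and 33.1 in ING4-/-, at -0.56 on the counts and -1.19 ± 0.428 after subtraction (adjusted p = 0.0575). For these 3 genes every ING4-/- value lay below every WT value after subtraction, and the fold change was below 0 on the counts too. The median of the 14 was 0.44 on the counts and -0.10 after subtraction. Imp4, with 0.88 ± 0.226 on the counts (adjusted p = 0.01), passed the p threshold and not the fold threshold. The other 7 processome members ranged from 0.24 for Utp18 to 0.82 for Rrp9 on the counts, and none passed either threshold.

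None of the 4 late 40S factors was called after subtraction. Nob1, the endonuclease that makes the final cut of the 18S rRNA, had 119.8, 76.2 and 126 background-subtracted CPM in WT and 189, 138 and 151 in ING4-/-. It was called on the counts at 1.22 ± 0.266 (adjusted p = 0.004575), but at 0.57 ± 0.264 after subtraction it was not (adjusted p = 0.127), although its groups did not overlap, and without the WT ST-HSC library the value on the counts was 0.98. Tsr1, which blocks the site where translation factors join, had 57.8 to 74.8 CPM in WT and 66.3 to 82.3 in ING4-/-, and Ltv1, an export factor, 55.4 to 73.6 and 56.1 to 72.3. Both sets of values overlapped after subtraction, although on the counts Tsr1 passed the p threshold at 0.77 ± 0.236 (adjusted p = 0.0218) and Ltv1 had 0.67 ± 0.261 (adjusted p = 0.0562). Srr, on the opposite strand, covers 32.3% of the exon bases of Tsr1, and the sources used here do not say whether counting used strand. Rrp12 had 96.2, 34.5 and 128 CPM in WT and 44.6, 103 and 54.0 in ING4-/-, higher in WT for LT-HSCs and MPPs and lower for ST-HSCs, with a log2 fold change of 0.21 ± 0.511 on the counts (adjusted p = 0.742) and -0.36 ± 0.543 after subtraction (adjusted p = 0.643).

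Of 12 factors of 60S assembly, 4 were called higher on the counts, beside 24.3% of the genes that reached 10 counts, and Nip7 alone after subtraction, beside 9.08%. Nip7 (chr8:107056877-107060931), a factor needed for cleavage of the precursor, had 91.4, 54.7 and 75.4 background-subtracted CPM in WT and 144, 187 and 149 in ING4-/-, with no overlap. The log2 fold change was 1.74 ± 0.268 on the counts (adjusted p = 0.00095) and 1.11 ± 0.263 after subtraction (adjusted p = 0.00957). Mrto4, which holds the place of the ribosomal stalk, was at 37.6, 48.6 and 80.02 CPM in WT and 104, 70.8 and 106 in ING4-/-, and was called on the counts at 1.34 ± 0.344 (adjusted p = 0.0101) and not after subtraction at 0.76 ± 0.368 (adjusted p = 0.144). Nop16 was called on the counts at 1.28 ± 0.299 (adjusted p = 0.006525), falling to 0.99 without the ING4-/- ST-HSC library, and had 0.54 ± 0.288 after subtraction (adjusted p = 0.186). Noc2l had 0.64 ± 0.460 after subtraction (adjusted p = 0.316). On the counts it was called at 1.25 ± 0.459 (adjusted p = 0.0451), and lost that call without any of 4 libraries: WT LT-HSC, WT ST-HSC, ING4-/- ST-HSC or ING4-/- MPP. Samd11, on the opposite strand, covers 20.9% of its exon bases.

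The PeBoW proteins Pes1, Bop1 and Wdr12, which act as a trimer in 60S assembly, were not called in either fit. Pes1 had 0.89 ± 0.215 on the counts (adjusted p = 0.0079) and 0.15 ± 0.214 after subtraction (adjusted p = 0.626), Bop1 0.45 ± 0.253 and -0.29 ± 0.259, and Wdr12 0.71 ± 0.292 and 0.21 ± 0.31. Copies of Pes1 held 22.4% of its count in WT LT-HSCs and at most 0.305% in ING4-/-. Rrp1, with 352 to 460.1 CPM in WT and 260 to 285 in ING4-/-, did not overlap after subtraction and had -0.55 ± 0.163 (adjusted p = 0.0266), while on the counts its value was 0.23 ± 0.184. Noc3l had 241, 226 and 176 counts in WT and 51, 169 and 387 in ING4-/-, and its log2 fold change of -1.86 ± 0.766 on the counts (adjusted p = 0.067) and -1.99 ± 0.883 after subtraction (adjusted p = 0.113) was not called. Rrs1 had 25, 144 and 288 counts in WT, the widest spread among the members there, and 1.36 ± 0.828 on the counts (adjusted p = 0.193) beside 0.98 ± 1.47 after subtraction. Ebna1bp2 at 0.71 ± 0.277 and the rRNA methyltransferase Nop2 at 0.55 ± 0.435 on the counts passed neither threshold, and after subtraction they had 0.03 and -0.20.

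Among the nucleolar phosphoproteins and the GTPase Gnl3, the directions differed. Npm1, nucleophosmin, the chaperone that forms the outer nucleolar layer, had 657, 758 and 649 background-subtracted CPM in WT and 1166, 1132 and 1002 in ING4-/-. The log2 fold change was 1.48 ± 0.13 on the counts (adjusted p = 0.000657) and 0.68 ± 0.132 after subtraction (adjusted p = 0.00394), below the fold threshold. Tcof1, treacle, a scaffold for RNA polymerase I, had 117, 103 and 123 CPM in WT and 42.3, 42.2 and 48.1 in ING4-/-. Means were 114 ± 10.0 and 44.2 ± 3.4 (SD, n = 3), with the groups well apart and little spread in either. Its log2 fold change was -0.77 ± 0.238 on the counts (adjusted p = 0.0238), under the fold threshold, and -1.37 ± 0.243 after subtraction (adjusted p = 0.00269). Leaving out each library in turn, it was called lower after subtraction in all 6 fits, but with population as a block it was not called (-1.37 ± 0.268, adjusted p = 0.068). Ncl, nucleolin, had 578, 898 and 841 CPM in WT and 452, 545 and 507 in ING4-/-, with 0.13 ± 0.205 on the counts (adjusted p = 0.603) and -0.62 ± 0.197 after subtraction (adjusted p = 0.0348). Its exons span 10188 bases, and its sign depended on the correction for length. With the length trend removed it had 0.94 ± 0.192 (adjusted p = 0.0121), and with background and trend both removed 0.21 ± 0.203 (adjusted p = 0.57). Gnl3, nucleostemin, had 0.39 ± 0.259 on the counts and -0.38 ± 0.25 after subtraction, and Nolc1, a chaperone of the snoRNPs, -0.10 ± 0.587 and -0.80 ± 0.575, none of which passed either threshold. In Nolc1 the ST-HSC libraries were alike at 147 and 146 CPM, while LT-HSCs had 86.7 in WT and 32.9 in ING4-/-.

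The RNA polymerase I factors did not pass either threshold. Rrn3, which recruits the polymerase, had 72.0, 74.5 and 129 background-subtracted CPM in WT and 86.3, 72.9 and 115 in ING4-/-, overlapping groups at 0.61 ± 0.325 on the counts (adjusted p = 0.139) and -0.004 ± 0.332 after subtraction (adjusted p = 0.995). Ubtf, which opens the ribosomal DNA, had 114, 141 and 174 CPM in WT and 124, 104 and 93.2 in ING4-/-, at 0.18 ± 0.235 on the counts (adjusted p = 0.532) and -0.42 ± 0.239 after subtraction (adjusted p = 0.212).

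**Figure D2:**
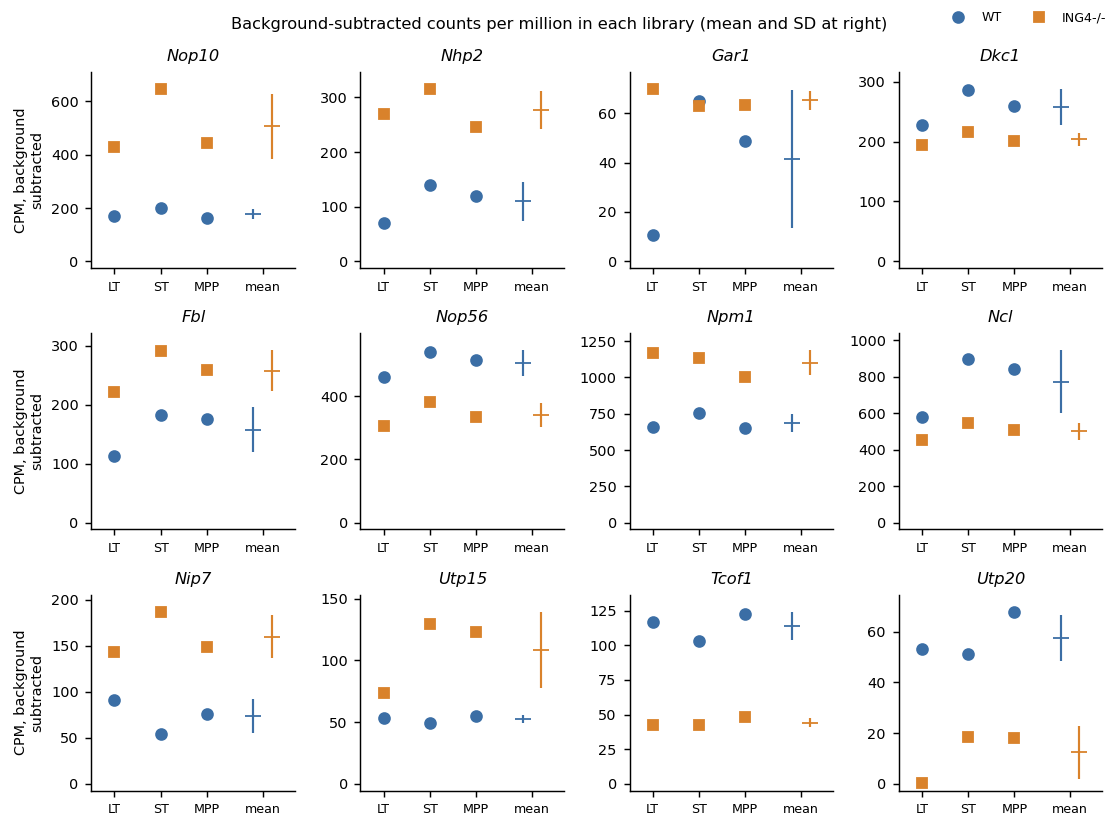
Background-subtracted CPM (vertical axis, linear) of 12 members in each library; blue circles are WT, orange squares ING4-/-, and the marks at the right of each panel are means with SD over the 3 populations. Nop10, Nhp2, Fbl, Npm1, Nip7 and Utp15 have every ING4-/- value above every WT value, Dkc1, Nop56, Ncl, Tcof1 and Utp20 have every one below, and Gar1 overlaps.

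Ratios between members of the same particle or role within a library depend on no scaling between libraries. The pairs were chosen after values were seen, and with 3 libraries a side the exact permutation test, two-sided, cannot give a p under 0.1. The ratio of Nop10 to Dkc1 counts was 0.722, 0.676 and 0.612 in WT and 2.19, 2.99 and 2.22 in ING4-/-, a 3.68-fold difference of means (0.67 ± 0.0551 and 2.47 ± 0.451, SD, exact permutation p = 0.1). Nhp2 to Dkc1 was 0.412 ± 0.09 in WT and 1.35 ± 0.119 in ING4-/- (exact permutation p = 0.1), and Fbl to Nop56 was 0.329 ± 0.0497 and 0.757 ± 0.0264 (exact permutation p = 0.1). The ratio of Npm1 to Ncl was 0.887 ± 0.174 and 2.21 ± 0.323 (exact permutation p = 0.1), and that of Gar1 to Dkc1 0.168 ± 0.0875 and 0.322 ± 0.0341 (exact permutation p = 0.1). None of these 5 ratios overlapped between genotypes, and subtraction of the background left their fold differences between 2.09 and 3.56. In each of the 5 the first gene has the shorter coding sequence, such as 192 bases for Nop10 and 1527 for Dkc1. The ratios were not corrected for length. With the length trend removed, Npm1 had a log2 fold change of 0.80 and Ncl 0.94, the reverse order. With subtraction as well they had 0.46 and 0.21. In the other pairs of the 5 the first gene stayed the higher in both fits. The ratio of Nop58 to Nop56 overlapped between genotypes, at 0.575 ± 0.0817 and 0.570 ± 0.124 (exact permutation p = 0.9). Bop1 to Pes1, Wdr12 to Pes1 and Imp3 to Imp4 overlapped as well (exact permutation p = 0.2, 0.7 and 0.3).

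**Figure D3:**
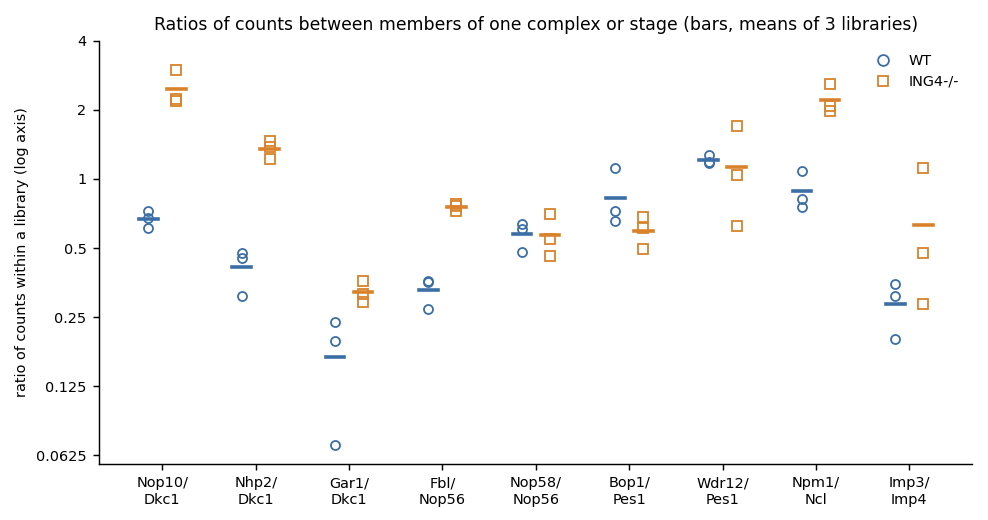
Ratio of the counts of 2 members within a library (vertical axis, log scale) for 9 pairs; open blue circles are the 3 WT libraries, open orange squares the 3 ING4-/- libraries, and bars their means. Nop10, Nhp2 and Gar1 over Dkc1, Fbl over Nop56 and Npm1 over Ncl separate by genotype, and the other 4 pairs overlap.

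Fold change and coding length were related among the members. Across the 44 members, log2 fold change on the counts had a Pearson correlation of -0.79 with the log of coding length (Spearman -0.79), and -0.77 after subtraction (Spearman -0.76). Nop10 codes in 192 bases and Utp20, at the other end, in 8367, while of the members called higher on the counts Utp15 codes in 1584 and Noc2l in 2250. Across 9022 genes with at least 10 counts per library and a coding sequence the same correlation was -0.55 on the counts (Spearman -0.57), and across 9001 such genes -0.21 after subtraction (Spearman -0.42), so genes at large showed a relation of the same sign. With the exonic length of the files, which counts every annotated exon, the members gave -0.51 and -0.47. Genes in these correlations share libraries and are not independent. By exonic length, 4 of 8 members under 2 kb were called higher on the counts beside 50.8% of genes of that length, 5 of 20 between 2 and 4 kb beside 31.0%, and 3 of 16 at 4 kb or more beside 9.77%. After subtraction these were 2 of 8 beside 20.5%, 1 of 20 beside 8.45% and 1 of 16 beside 5.09%. Removal of the trend on exonic length left a correlation with coding length of -0.59 among the members. The trend on the coding transcript in its place gave 7 members called higher beside 6.13% of genes and 0 lower beside 2.66%, and with subtraction 3 higher beside 2.21% and 0 lower beside 1.8%.

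**Figure D4:**
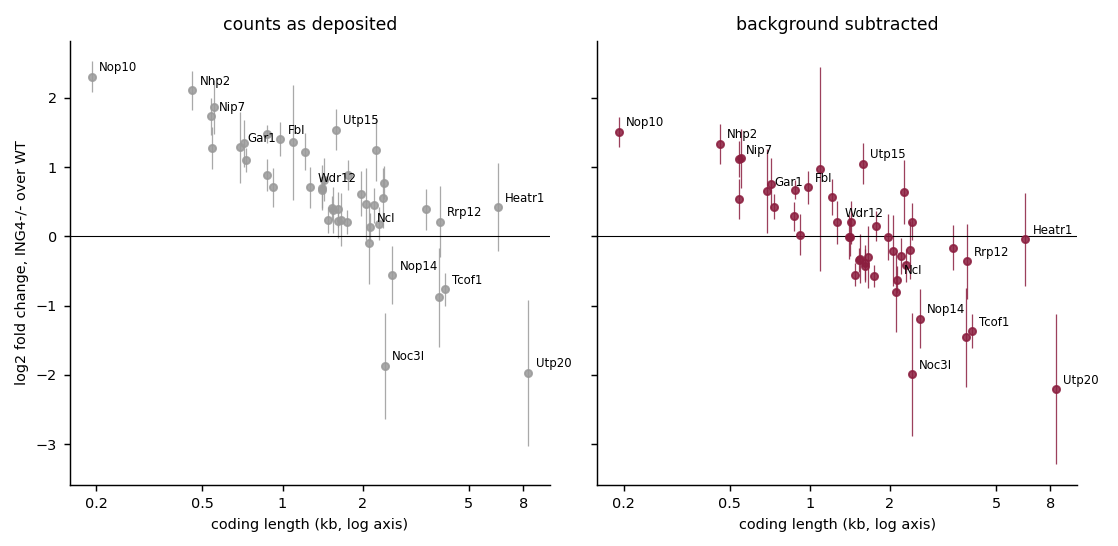
Log2 fold change (vertical axis, ING4-/- over WT, bars are standard errors) against coding length in kb (horizontal axis, log scale) of the 44 members, on the counts (left) and after background subtraction (right). In both panels Nop10 is the leftmost and highest point and Utp20 the rightmost and lowest, and most values are lower in the right panel.

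The level of RNA per length set the members far apart. Per kb of coding transcript, background-subtracted levels in WT were highest for Npm1 at 421 CPM per kb, Nop56 at 269 and Rrp1 at 203, and lowest for Utp20 at 6.5 and Noc3l at 5.27. In ING4-/- Npm1 was at 674 CPM per kb, followed by Nop10 at 457 and Nhp2 at 266, and Utp20 and Noc3l were at 1.41 and 1.32. Over the populations, the median SD of log2 CPM across members was 0.262 in WT and 0.364 in ING4-/- on the counts, beside 0.320 and 0.536 over 9673 genes. After subtraction it was 0.282 and 0.333, beside 0.428 and 0.534.

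Within populations, where each genotype has 1 library and no test is possible, the median log2 ratio of the members on the counts was 0.48 in MPPs, 0.74 in ST-HSCs and 0.82 in LT-HSCs. After subtraction it was -0.14, -0.03 and 0.19 in that order. Over genes with at least 10 counts the medians in that order were 0.37, 0.59 and 0.55 on the counts, and 0.06, 0.31 and 0.40 after subtraction. In all 3 populations, 13 members were higher in ING4-/- after subtraction: Nop10, Nhp2, Fbl, Npm1, Emg1, Imp4, Utp15, Mrto4, Nip7, Nop16, Nob1, Tsr1 and Rrs1. In all 3, 11 were lower: Dkc1, Nop56, Ncl, Gnl3, Nolc1, Tcof1, Rrp1, Noc3l, Nop14, Bms1 and Utp20. No share of genes with 1 sign in all 3 populations is given to set beside these lists. The ratio of Rrs1 in LT-HSCs has a subtracted WT value of 0. Without overlap between the groups, 20 members were higher and 4 lower on the counts, beside 35.9% and 13.1% of genes with at least 10 counts. After subtraction 8 were higher beside 24.5%, and 9 lower beside 13.2%.

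The populations themselves were compared over both genotypes with genotype as a term, MPPs against LT-HSCs. No member was called by edgeR, beside 0.0% of 36170 genes, or by DESeq2's Wald test, beside 0.437% called higher and 0.52% lower. In edgeR 1 member had an unadjusted p under 0.05, Rrs1 at 2.27 ± 0.859 on the log2 scale, the gene with 25 counts in WT LT-HSCs, and in DESeq2 also 1 did. Ncl had 0.42 ± 0.169 and Fbl 0.47 ± 0.225, both higher in MPPs of each genotype, and Npm1 and Nop10 had -0.04 ± 0.141 and 0.07 ± 0.209.

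Other ribosome biogenesis genes were taken from a list written beside the members. Of 87 found, 20 were called higher and 4 lower on the counts, and 1 higher and 4 lower after subtraction. Beside these stood 24.3% and 6.53% of the genes that reached 10 counts, and 9.08% and 5.7% after subtraction. Highest on the counts were Utp23, a processome factor, at 2.23 ± 0.443 (adjusted p = 0.00294) and Rsl24d1, a 60S factor, at 1.66 ± 0.193 (adjusted p = 0.000657). Lowest were Mdn1, the large AAA ATPase of 60S maturation, at -3.23 ± 0.806 (adjusted p = 0.0089) and Nol8 at -1.85 ± 0.464 (adjusted p = 0.00917), and the calls of Utp23, Mdn1 and Nol8 held after subtraction at 3.15, -3.61 and -2.37. Of 12 RNA polymerase I subunits and factors, 4 were called higher on the counts and 2, Polr1c and Polr1d, after subtraction, beside 24.3% and 9.08%. Highest on the counts were the subunits Znrd1 at 1.79 ± 0.406 (adjusted p = 0.00557) and Polr1d at 1.72 ± 0.231 (adjusted p = 0.000661), with 1.15 and 1.06 after subtraction. Lowest were Polr1a, the largest subunit, at -0.88 ± 0.569 (adjusted p = 0.217) and Taf1a, of the promoter factor SL1, at -0.88 ± 1.77 (adjusted p = 0.694), with -0.95 and -0.86 after subtraction. The median of the 87 was 0.61 on the counts and 0.02 after subtraction, and that of the 12 was 0.67 and 0.09.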

How the data were processed

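Total RNA of sorted LT-HSCs, ST-HSCs and MPPs was sequenced in 6 libraries, 3 WT and 3 ING4-/-. The deposited files hold read counts per gene, not normalized, with exonic positions and lengths per the file headers, and the authors' processing notes name the build mm10; the aligner, the counter, the annotation release and the use of strand are not given in the sources used here. Symbols came from GENCODE M21 (GRCm38) for 49056 of 49315 identifiers. Counts were fitted with edgeR 4.0.16 in R 4.3.3 (TMM, filterByExpr by genotype, quasi-likelihood test, Benjamini-Hochberg adjustment over all genes tested), and DESeq2 1.42.0 was an alternative. CPM are scaled by TMM, and ratios within a population use a prior count of 2. The background is the count density over receptor genes, multiplied by exonic length, subtracted, rounded and floored at 0. The length trend is a loess curve of each library's deviation on log10 exonic length, entered as an offset. Scripts were tested on simulated counts. Near-identical copies share at least 95% of bases over at least 300 bases and 80% of the copy. In a check of pairing, the deviations of the WT and ING4-/- library of a population from their group means correlated across 9673 genes at 0.121 in MPPs, 0.110 in ST-HSCs and 0.143 in LT-HSCs. These correlations are weak and do not settle whether populations pair the libraries. The main fit has no term for population, and fits with population as a block are given beside it. Named with values were all members of roles with 5 or fewer, otherwise the 3 highest and 3 lowest fold changes, any member called in opposite directions, or called on the counts and of the other sign after subtraction, Ing4, and the 2 highest and 2 lowest of the other lists; Pes1, Wdr12, Imp4, Nop16, Noc2l, Ebna1bp2, Nop2, Heatr1 and the ratios of pairs were added after values were seen. The members, roles and lists were chosen with earlier results of these data known. Counting error depends on depth: 3 counts are 0.32 to 0.383 CPM in WT and 0.0765 to 0.0843 in ING4-/-. The levels of 1 further list of cell type markers are not reported here.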

Additional observations from a re-analysis of the deposited data

Results flagged for a closer look

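Opposite directions in different populations after background subtraction drew attention to 2 members, each with log2 ratios beyond 1 both ways. Mixed signs were not limited to them: 13 members were higher in ING4-/- in 1 population only and 7 in 2. Rrp12 had a log2 ratio, ING4-/- over WT, of 1.58 in ST-HSCs and -1.25 in MPPs. Heatr1, a large processome protein with 503, 689 and 943 counts in WT and 5301, 744 and 3462 in ING4-/- LT-HSCs, ST-HSCs and MPPs, had 1.39 in LT-HSCs and -2.25 in ST-HSCs. Each value compares 1 library with 1 library, and the difference was not tested.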

How the results depend on the processing

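On the counts 12 members were called higher and 0 lower with a median log2 fold change of 0.64, and each alternative below gives these numbers in that order. Signs that turned are counted over all members tested and valued for the 30 members followed singly. No member was called between MPPs and LT-HSCs under any alternative run. Population as a replicate block left the counts at 12 and 0 (6.45% and 54.4% of genes, median 0.65), and an absent low-count filter gave 13 and 0 (6.14% and 52.7%). Without the fold threshold 15 members passed higher and 1 lower, but no share of genes under that rule is given to set beside these counts. With DESeq2's size factors in edgeR, 8 and 2 were called (4.33% and 58.3% of genes, median 0.30), and signs turned for 7 of 44, at -0.11 for Rrp1, -0.16 for Ubtf, -0.16 for Nop58, -0.15 for Nop56, -0.13 for Rrp12 and -0.22 for Ncl. With DESeq2's Wald test, 8 and 2 were called (4.9% and 59.8% of genes, median 0.30), and signs turned for 7 of 44, at -0.11 for Rrp1, -0.16 for Ubtf, -0.16 for Nop58, -0.15 for Nop56, -0.13 for Rrp12 and -0.22 for Ncl. With protein-coding genes only, 8 and 1 were called (6.17% and 40.3% of genes, median 0.30), and signs turned for 7 of 44, at -0.11 for Rrp1, -0.16 for Ubtf, -0.13 for Nop58, -0.14 for Nop56, -0.13 for Rrp12 and -0.21 for Ncl. With the ING4-/- libraries thinned to the depth of WT, 10 and 0 were called (6.73% and 53.8% of genes, median 0.43), and signs turned for 3 of 44, at -0.029 for Ubtf, -0.0004 for Nop56 and -0.068 for Ncl. With a minimum of 10 counts in every library, 5 and 2 were called (8.3% and 9.68% of genes, median 0.15), and signs turned for 14 of 44, at -0.074 for Bop1, -0.26 for Rrp1, -0.31 for Ubtf, -0.30 for Nop58, -0.29 for Nop56, -0.10 for Dkc1, -0.28 for Rrp12, -0.13 for Gnl3 and -0.37 for Ncl. With upper-quartile normalization, 25 and 0 were called (14.7% and 55.1% of genes, median 1.23), and signs turned for 2 of 44, at 0.51 for Nolc1 and 0.033 for Nop14. With the length trend removed and a minimum of 10 counts, 8 and 0 were called (9.09% and 4.26% of genes, median 0.31), and signs turned for 11 of 44, at -0.30 for Bop1, -0.59 for Rrp1, -0.13 for Nop56, -0.20 for Ltv1, -0.054 for Rrp12 and -0.49 for Gnl3. With the trend on the coding transcript removed, 7 and 0 were called (6.13% and 2.66% of genes, median 0.35), and signs turned for 9 of 44. With the background subtracted, 4 and 1 were called (5.6% and 38.7% of genes, median -0.0115), and signs turned for 18 of 44, at -0.29 for Bop1, -0.55 for Rrp1, -0.0039 for Rrn3, -0.42 for Ubtf, -0.42 for Nop58, -0.57 for Nop56, -0.34 for Dkc1, -0.013 for Ltv1, -0.36 for Rrp12, -0.38 for Gnl3 and -0.62 for Ncl. With 1.5 times the background density subtracted, 4 and 1 were called (8.38% and 30.3% of genes, median -0.093), and signs turned for 19 of 44, at -0.42 for Bop1, -0.70 for Rrp1, -0.0403 for Rrn3, -0.46 for Ubtf, -0.50 for Nop58, -0.72 for Nop56, -0.47 for Dkc1, -0.11 for Ltv1, -0.35 for Rrp12, -0.53 for Gnl3 and -0.76 for Ncl. With the background of a second set of genes (taste receptor, keratin-associated, defensin and crystallin genes) subtracted, 3 and 2 were called (4.21% and 41.6% of genes, median -0.096), and signs turned for 19 of 44, at -0.35 for Bop1, -0.62 for Rrp1, -0.097 for Rrn3, -0.52 for Ubtf, -0.50 for Nop58, -0.63 for Nop56, -0.41 for Dkc1, -0.094 for Ltv1, -0.46 for Rrp12, -0.44 for Gnl3 and -0.69 for Ncl. With subtraction and a minimum of 10 counts, 3 and 1 were called (3.97% and 5.84% of genes, median -0.11), and signs turned for 19 of 43, at -0.40 for Bop1, -0.64 for Rrp1, -0.072 for Rrn3, -0.50 for Ubtf, -0.53 for Nop58, -0.66 for Nop56, -0.43 for Dkc1, -0.099 for Ltv1, -0.43 for Rrp12, -0.48 for Gnl3 and -0.71 for Ncl. With subtraction and the length trend removed, 2 and 1 were called (3.51% and 2.88% of genes, median -0.0044), and signs turned for 16 of 43, at -0.56 for Bop1, -0.89 for Rrp1, -0.039 for Rrn3, -0.0498 for Ubtf, -0.56 for Nop56, -0.32 for Dkc1, -0.40 for Ltv1, -0.28 for Rrp12 and -0.76 for Gnl3. With subtraction and the trend on the coding transcript removed, 3 and 0 were called (2.21% and 1.8% of genes, median 0.021), and signs turned for 15 of 43. With subtraction and population as a block, 1 and 0 were called (0.917% and 0.907% of genes, median -0.024), and signs turned for 18 of 44, at -0.30 for Bop1, -0.54 for Rrp1, -0.41 for Ubtf, -0.45 for Nop58, -0.57 for Nop56, -0.33 for Dkc1, -0.0115 for Ltv1, -0.32 for Rrp12, -0.41 for Gnl3 and -0.60 for Ncl. Subtraction with a minimum of 10 counts, with a block or with a library left out, and the trend on the coding transcript, were chosen after seeing the data. Without both LT-HSC libraries 17 and 1 were called (7.42% and 61.4% of genes), without both ST-HSC libraries 10 and 0 (4.89% and 57.2%), and without both MPP libraries 9 and 1 (5.15% and 59.1%). Among members followed singly, signs then turned at -0.037 for Bop1 and -0.17 for Nop58 without MPPs, -0.60 for Rrp12 without ST-HSCs, and 0.096 and 0.17 for Nolc1 without LT-HSCs and MPPs. Leaving out each library in turn gave 10 to 15 members called higher (5.24% to 8.62% of genes) and 0 to 1 lower (56.0% to 61.7%), medians of 0.54 to 0.67, and ranges of -0.24 to 0.48 for Rrp12, -0.076 to 0.25 for Ncl and -0.997 to 0.30 for Nolc1. After subtraction this gave 3 to 5 higher (4 in 4 of the 6; 3.64% to 7.08% of genes) and 1 to 2 lower (34.9% to 40.5%), with medians of 0.02, -0.0008, 0.15, 0.085, 0.11 and -0.031. The cause of these shifts was not tested. Low counts limit the precision of 3 members: Rrs1 had 25 counts in WT LT-HSCs, and Utp20 had 19 and Noc3l 51 in ING4-/- LT-HSCs.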
